A study of Mus musculus with 8 samples.

Results

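Granule-gene-high neutrophils were 98 of the 11806 lung cells in the deposited count table, or 0.830% (95% exact binomial interval 0.674 to 1.01). They were chosen by measured transcript counts, as cells in which S100a8 and S100a9 made up at least 1% of the UMIs (unique molecular identifiers, each tagging 1 captured transcript), in which Ngp, Camp and Ltf together had at least 10 UMIs, and in which F13a1, a monocyte gene, and Cdh5, an endothelial gene, had 0. They are set against 436 comparison cells with the same S100a8 and S100a9 minimum, at least 2 UMIs of the neutrophil receptor genes Csf3r, Il1r2 and Cxcr2, and fewer than 10 UMIs of Ngp, Camp and Ltf. The rule used measured transcripts of these same cells, so every difference between the groups is a description, with no test. The working label of immature neutrophils comes from the known order of granule gene expression, and maturity itself was not measured.

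The lungs came from 5-day-old wild-type C57BL6/J pups, were cryopreserved, thawed and sorted for endothelial, epithelial and immune cells, and were profiled as 8 droplet-based libraries. Of these, 4 came from pups given 65% oxygen after birth (hyperoxia) and 4 from pups in 21% oxygen (air). All pups of both groups had been exposed to lipopolysaccharide before birth, at day 14 of gestation. The table pools the libraries with no key from cells to libraries, so it was treated as 1 sample and hyperoxia was not compared with air. How many animals gave each library is not given in the sources used here.

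Neutrophils are made in the bone marrow, where the granule proteins are transcribed in waves. Primary granule genes such as Mpo and Elane are read in promyelocytes, secondary granule genes such as Ltf, Camp and Ngp in myelocytes and metamyelocytes, and gelatinase and secretory vesicle genes later, while receptors and cytokines are features of the mature cell. Ltf encodes lactoferrin, an iron-binding protein, Camp encodes the precursor of an antimicrobial peptide, and Ngp encodes neutrophilic granule protein. The transcription factors C/EBP-epsilon and PU.1 are known regulators of secondary granule genes.

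The 3 granule genes of the rule lie on chromosome 9, between positions 109847379 and 111042767 of GRCm38 (mm10), a stretch of 1195 kb. The sequence before the RefSeq start of each is shown because these genes set the group apart, with that of Cd177, a surface protein of secondary granules that the rule did not use. Each run is given 5′ to 3′ on the gene's strand and stops where the RefSeq or the count table's annotation first draws the gene. Capitals mark matches on either strand to the C/EBP motif TTGCNNAA or the PU.1 motif GAGGAA. The sequences are from RefSeq, build GRCm38.p6.
Ngp, chr9:110419558-110419746, plus strand: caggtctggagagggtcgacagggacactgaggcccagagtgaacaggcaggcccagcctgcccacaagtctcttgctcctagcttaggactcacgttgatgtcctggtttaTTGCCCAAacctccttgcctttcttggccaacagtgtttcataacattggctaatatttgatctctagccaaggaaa
Camp, chr9:109849618-109849706, minus strand: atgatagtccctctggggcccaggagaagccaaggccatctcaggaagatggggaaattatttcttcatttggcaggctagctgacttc
Ltf, chr9:111019042-111019270, plus strand: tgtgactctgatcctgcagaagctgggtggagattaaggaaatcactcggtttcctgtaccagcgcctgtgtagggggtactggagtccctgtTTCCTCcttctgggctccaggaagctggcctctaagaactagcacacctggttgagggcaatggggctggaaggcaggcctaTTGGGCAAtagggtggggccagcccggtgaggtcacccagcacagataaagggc
Cd177, chr7:24760312-24760561, minus strand: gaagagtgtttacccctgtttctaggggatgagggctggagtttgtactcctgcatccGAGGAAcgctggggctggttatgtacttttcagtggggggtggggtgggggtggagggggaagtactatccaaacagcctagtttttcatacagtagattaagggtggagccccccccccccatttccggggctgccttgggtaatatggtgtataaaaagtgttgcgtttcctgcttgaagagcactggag

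In the full 250 bases before the RefSeq start, Ngp had 2 C/EBP matches, starting at -138 and -11, and Ltf had 1 C/EBP match at -75 and 1 PU.1 match at -157. Cd177 had 1 PU.1 match at -192, and Camp had a match to neither motif in this window. The C/EBP motif was found in 7 of 17 windows of the secondary granule genes (41.2%), against 9.56% of all 32851 windows of that length, and the PU.1 motif in 10 of 17 (58.8%), against 23.3% of all windows. The 17 windows belonged to 16 of the 18 listed genes. No C/EBP match overlaps a PU.1 match in these 4 windows, and a match is a description of the letters, not a binding site.

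The cells near the rule's limits were few. Of 662 cells with at least 1% S100a8 and S100a9, 102 had at least 10 granule UMIs, and 4 of those were left out for F13a1 or Cdh5. The lowest chosen cells had 12, 12, 14 and 15 granule UMIs, and 2 cells just outside had 9. In all 5 cells had 5 to 9, 470 had 0, and 88 of the 98 chosen cells had 30 or more. On the other limit, 3 cells with enough granule UMIs had too little S100a8 and S100a9, at 0.261%, 0.296% and 0.679%, and 4 chosen cells lay below 2%. The 128 cells of the 662 that met neither rule were not used. Of the granule-gene-high neutrophils, 82 also had the 2 receptor UMIs that define the comparison cells, and 8 had none.

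**Figure D1:**
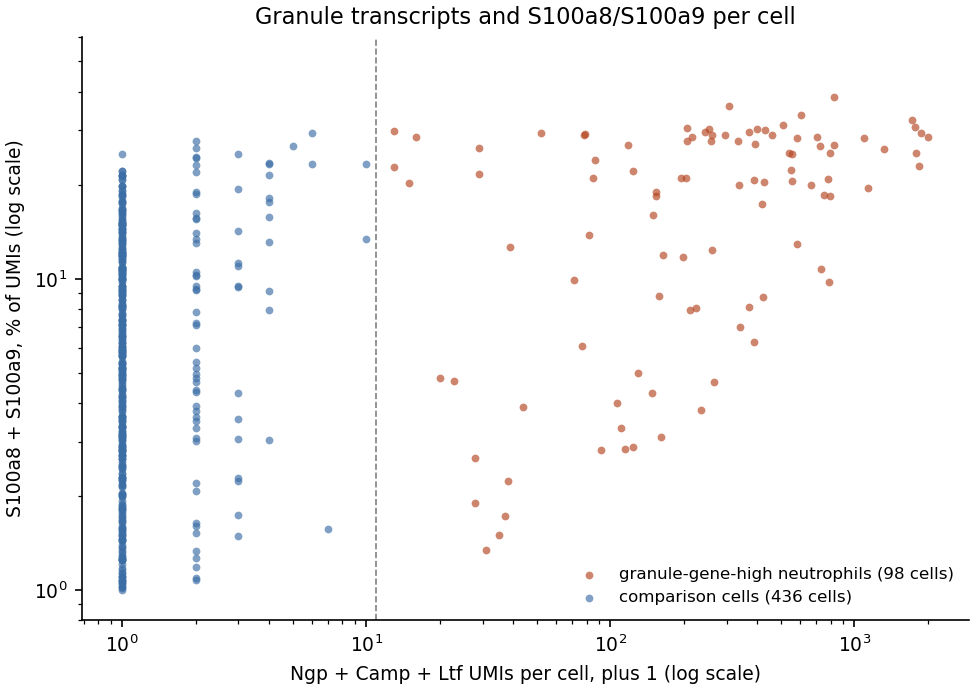
Each point is a cell, with the summed UMIs of Ngp, Camp and Ltf plus 1 on the x axis and the share of UMIs from S100a8 and S100a9, in percent, on the y axis, both on log scales. The dashed line is the limit of 10 granule UMIs, with the 98 granule-gene-high neutrophils to its right and the 436 comparison cells to its left, and the lowest chosen cells had 12 granule UMIs.

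A granule-gene-high neutrophil had a median of 7684 UMIs and 1836 genes, against 5151 UMIs and 1861 genes in the comparison cells. S100a8 and S100a9, which form calprotectin, made up a median of 20.9% of UMIs, against 5.72%. Ngp, Camp and Ltf gave a median of 248 UMIs per cell (12 to 2012), or 4.04% of UMIs (0.0882% to 9.49%). Summed over the cells, Ngp had 18205 counts per 1e+06 UMIs (CPM), against 23.6 CPM in comparison cells, Camp 13779 against 13.8 CPM, and Ltf 8552 against 13.4 CPM. These values follow from the rule.

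The cells came unevenly from the 8 runs of barcodes, the stretches of alphabetical order in the table, which are not known to be libraries. Run 1 held 54 of the 98 granule-gene-high neutrophils (55.1%, 44.7 to 65.2) and 266 of the 436 comparison cells (61.0%). Runs 3, 4, 5, 6, 7 and 8 held 7, 6, 1, 7, 13 and 10 granule-gene-high neutrophils, against 9, 1, 5, 86, 30 and 19 comparison cells. Run 2 held 0 and 20. As a share of both groups together, the granule-gene-high neutrophils ranged from 7.53% (3.08 to 14.9) in run 6 to 43.8% (19.8 to 70.1) in run 3, among the 5 runs with at least 5 cells of both groups. In run 1 they had a median of 12004 UMIs per cell, against 5796 in comparison cells, and in run 3 they had 4273 against 1971. A gene is called non-overlapping below where all 5 of these runs (1, 3, 6, 7 and 8) lay on the same side of all 5 runs of the other group.

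Markers of other cells differed between the groups. F13a1, which the rule bars from the granule-gene-high neutrophils, was found in 52 of the 436 comparison cells, and Cdh5 in 5. The summed level of 9 monocyte markers other than F13a1 ranged from 165 to 765 CPM over the runs in granule-gene-high neutrophils, against 1299 to 2239 CPM in comparison cells. The 10 macrophage markers, among them Chil3, ranged from 402 to 1772 CPM, with C1qa, C1qc, Marco and Krt79 at 0, against 553 to 1867 CPM. A narrower set of 351 comparison cells, with 0 UMIs of F13a1 and Cdh5 and at most 1 UMI over Ccr2, Ms4a6c, Fn1, C1qa, C1qb and C1qc, was formed for that reason, and levels in it are given beside the main ones for the genes on which a direction or a large part of a ratio depends. Of the macrophage markers, Chil3 alone had 502 of 614 CPM in granule-gene-high neutrophils, against 51.9 of 796 CPM in comparison cells. Apoe ranged from 10.3 to 570 CPM over the runs, against 155 to 988 CPM. At least 3 UMIs of the 10 markers were found in 47 granule-gene-high neutrophils and 159 comparison cells. Basophil and erythroid markers were all at 0 in the granule-gene-high neutrophils. Sftpc, a surfactant gene of lung epithelium that neutrophils lack, had 104 CPM in them, 1367 CPM in comparison cells and 9454 CPM in all other cells. Much of the epithelial level of the comparison cells came from 1 cell, which held 3775 UMIs of 8 epithelial markers, where the median comparison cell held 1. These markers summed to 1503 CPM in comparison cells and 2359 CPM in the narrower set. No granule-gene-high neutrophil and 4 comparison cells were among the 193 cells with the highest doublet scores.

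A few genes took a large part of all transcripts in the granule-gene-high neutrophils. Their 10 leading genes held 41.1% of UMIs, against 17.5% in comparison cells, and the stefin A family held 15.0% against 3.83%. Ribosomal protein genes held 3.18% against 9.29% (6.42% in the narrower set), and mitochondrial transcripts 1.38% against 1.53%. All levels are shares of a fixed total, and the median log2 ratio of the 3289 genes that reached 50 CPM in either group was -0.80. The part of the leading genes in that shift was not tested. At least 2-fold higher in the granule-gene-high neutrophils were 209 genes (6.35% of those compared), and at least 2-fold lower were 1354 (41.2%). Relative to the median gene the counts were 500 (15.2%) and 465 (14.1%). Against the narrower set, with a median of -0.79, they were 203 (6.32%) and 1294 (40.3%) of 3212 genes. Non-overlapping over the 5 runs were 104 genes higher in the granule-gene-high neutrophils (3.16%) and 573 lower (17.4%).

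**Figure D2:**
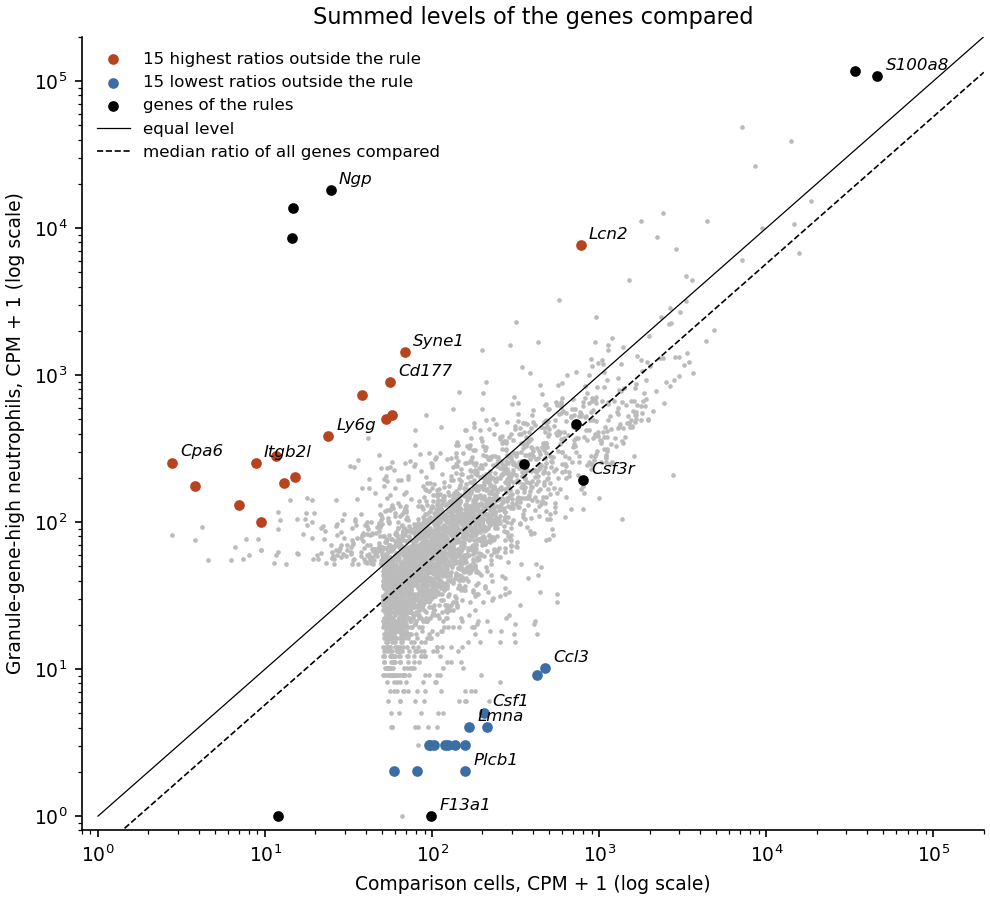
Each point is a gene that reached 50 CPM in either group or belongs to the rules (black), with its summed level in granule-gene-high neutrophils on the y axis and in comparison cells on the x axis, as CPM + 1 on log scales. The dashed line lies at the median ratio of the 3289 genes, below the line of equal levels, and Itgb2l, Ly6g, Cd177 and Lcn2 lie far above both.

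Secondary granule genes that the rule did not use followed the genes of the rule. Of 13 compared, 11 were at least 2-fold higher in the granule-gene-high neutrophils and 0 were lower, beside 6.35% and 41.2% of all genes. Their median log2 ratio was 2.45, against -0.80 over all genes. Against the narrower comparison cells, 9 were at least 2-fold higher, beside 6.32% of all genes. Lcn2, which encodes the iron-scavenging protein lipocalin-2, had 7741, 4717, 7198, 6095 and 8906 CPM in runs 1, 3, 6, 7 and 8 of the granule-gene-high neutrophils, against 972, 74.6, 238, 475 and 695 CPM in the same runs of comparison cells. Every run of the granule-gene-high neutrophils lay above every run of comparison cells, and over all cells the ratio was 9.93 (95% interval 9.47 to 10.4, counting error only). This interval, like all those below, comes from counts of UMIs in a pooled sample and does not include differences between animals.

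Cd177 lay apart in the same way. It had 950, 382, 932, 780 and 679 CPM in the 5 runs of granule-gene-high neutrophils, against 70.0, 0, 13.8, 22.1 and 32.6 CPM in comparison cells. Itgb2l, an integrin beta chain related to Itgb2, had 251, 159, 311, 319 and 195 CPM, against 8.56, 0, 3.94, 11.1 and 0 CPM. Neither gene overlapped between the groups, and the ratios over all cells were 16.3 (13.7 to 19.4) for Cd177 and 32.3 (20.9 to 52.5) for Itgb2l. Anxa1, a lipid-binding protein that limits inflammation, had 3217 against 569 CPM, and Mmp8, the neutrophil collagenase, 1591 against 290 CPM. Olfm4, a protein found in a subset of neutrophils, had 1489 against 197 CPM, in 40.8% against 30.5% of cells. Chil3, a chitinase-like protein, had 502 against 51.9 CPM. The 2 genes within 2-fold were Hp (haptoglobin), at 1041 against 729 CPM, and Lyz2 (lysozyme), at 6077 against 7164 CPM, which had 3819 CPM in the narrower set.

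Of 15 primary granule genes, 5 were undetected in the granule-gene-high neutrophils. The list summed to 862 CPM in them, 1900 CPM in comparison cells and 681 CPM in the narrower set. Mpo, Elane, Ctsg, Bpi and Cst7 had 0 UMIs among the 984242 UMIs of the granule-gene-high neutrophils, which allows up to 3.75 CPM each (upper 95% Poisson limit, counting error only). Of the 15 genes listed, 5 reached 50 CPM in either group, and of these 1 was at least 2-fold higher and 3 lower. Among all genes compared, 6.35% were higher and 41.2% lower. Against the narrower set, 2 were higher and 1 lower, beside 6.32% and 40.3% of all genes. Serpinb1a, an inhibitor of neutrophil elastase, was the higher one in the main comparison, at 281 against 10.6 CPM, with 2.27 CPM in the narrower set. It overlapped between the groups and was higher in 4 of the 5 runs. Ctsc, the protease that activates the granule serine proteases, had 67.1 against 320 CPM, with 124 CPM in the narrower set. Plac8, a myeloid gene, had 248 against 1158 CPM but 74.4 CPM in the narrower set, so its direction turned. Among early progenitor genes, Kit had 0 UMIs and Cd34 had 3. Myb, a transcription factor of dividing progenitors, had 18 UMIs in 13 of the 98 cells and 0 UMIs in the comparison cells. With cells thinned to equal depth, as below, it was found in 0 of 96 and 0 of 400 cells. Prtn3 and Cebpa went the other way, reaching at most 2.87 and 1.44 CPM in a run, against 37.3 and 44.2 CPM. The 8 granulocyte progenitor markers summed to 24.4 CPM, against 49.7 CPM in comparison cells and 11.9 CPM in the narrower set.

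Of 13 genes of the gelatinase granules and secretory vesicles, 6 were at least 2-fold higher and 3 lower, beside 6.35% and 41.2% of all genes. Mmp9 (gelatinase B) had 1127 against 344 CPM, Mmp25, a membrane-bound metalloproteinase, 144 against 16.9 CPM, and Padi4, the enzyme that citrullinates histones, 195 against 40.6 CPM. Retnlg, a resistin-like secreted protein, had 8654 against 2205 CPM. Lower were Cd14, the lipopolysaccharide co-receptor, at 255 against 750 CPM, Slc11a1 at 52.8 against 111 CPM and Cr1l at 37.6 against 86.1 CPM. Relative to the median gene, 10 of the 13 were higher and 0 lower, beside 15.2% and 14.1% of all genes.

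The stefin A and small secreted group was high in the granule-gene-high neutrophils. Of 14 genes, 11 were at least 2-fold higher and 1 lower, beside 6.35% and 41.2% of all genes. Stefins inhibit cysteine proteases of the cathepsin family. Stfa1 had 39351 against 14004 CPM, Stfa2 12669 against 2419 CPM, Stfa3 11209 against 1771 CPM and Cstdc4 26432 against 8579 CPM. The stefin A genes lie within 299 kb of chromosome 16 and are near-identical copies, so the split between them is uncertain. Wfdc17, a small whey acidic protein, was lower, at 381 against 946 CPM. Ly6g, the surface antigen used to identify mouse neutrophils, had 389, 255, 505, 159 and 391 CPM in the 5 runs of granule-gene-high neutrophils, against 30.2, 0, 0, 22.1 and 0 CPM in comparison cells. Every run with granule-gene-high neutrophils was again the higher, with a ratio of 16.6 (12.7 to 22.0).

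The largest ratios outside the rule, among genes with at least 100 UMIs, included several genes not known as granule genes. Cpa6, a carboxypeptidase, had 253 against 1.76 CPM, from 249 and 5 UMIs, a ratio of 143 (60.6 to 446). Ankrd22 had 174 against 2.82 CPM. Syne1, a very large protein that links the nucleus to the cytoskeleton, had 1423 against 67.4 CPM, and Adpgk, an ADP-dependent glucokinase, 735 against 37.0 CPM. Ly75, Cmah, Aff2, Acvrl1 and Abca13 were 9.35-fold to 21.5-fold higher. All 15 of the genes so named (with Itgb2l, Serpinb1a, Ly6g, Cd177, Lcn2 and Chil3) were also at least 2-fold higher than in the narrower comparison cells, and 12 were at least 5-fold higher than in all other cells of the table. Serpinb1a, Cmah and Acvrl1 overlapped between the groups over the runs, and the other 12 did not, where 3.16% of all genes were non-overlapping and higher. The 15 genes were picked for the highest ratios in these same cells, so none of these counts is a test.

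**Figure D3:**
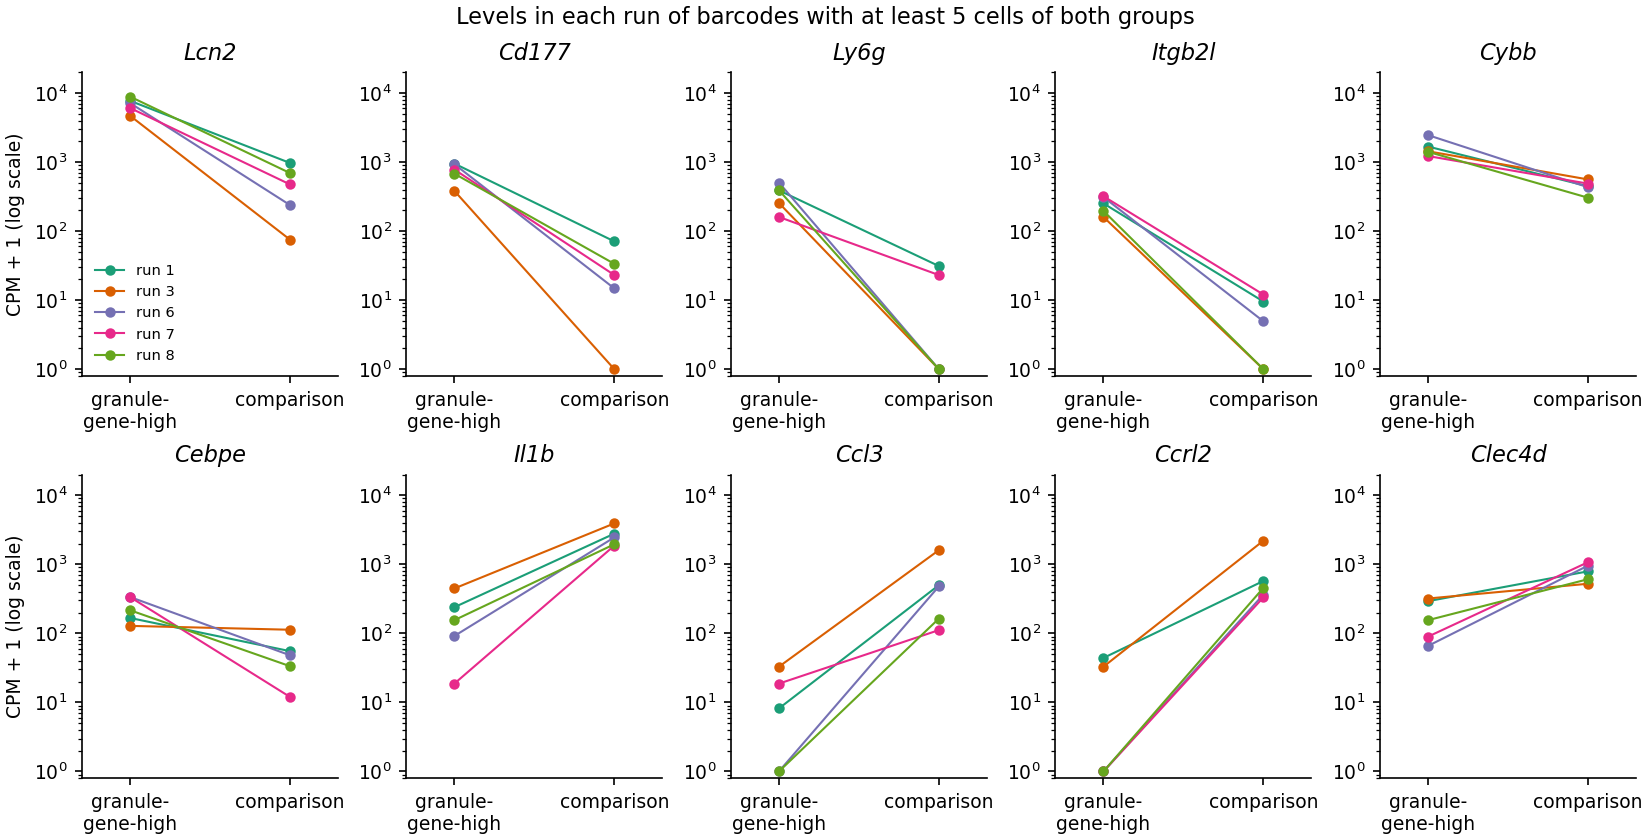
Levels of 10 genes as CPM + 1 on a log scale in the 5 runs of barcodes with at least 5 cells of both groups, granule-gene-high neutrophils on the left and comparison cells on the right of each panel, with a line for each run. Lcn2, Cd177, Ly6g, Itgb2l, Cybb and Cebpe are higher and Il1b, Ccl3, Ccrl2 and Clec4d lower in the granule-gene-high neutrophils in all 5 runs.

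Of 16 transcription factors and regulators of granulocytes compared, 2 were at least 2-fold higher and 7 lower, a share near the 41.2% of all genes, and relative to the median gene the counts were 2 and 2. Cebpe, the factor that drives secondary granule genes, had 167, 127, 337, 337 and 216 CPM in runs 1, 3, 6, 7 and 8 of the granule-gene-high neutrophils, against 54.4, 112, 47.3, 11.1 and 32.6 CPM in comparison cells. The groups did not overlap, though run 3 held nearly equal levels, and the overall ratio was 3.92 (3.15 to 4.88). Max, the partner of Myc, had 124 against 57.5 CPM. Spi1, which encodes PU.1, was within 2-fold at 544 against 570 CPM. Cebpb, a C/EBP factor of emergency granulopoiesis and mature myeloid cells, had 494 against 1961 CPM, and Irf5, a factor of inflammatory cytokine genes, 7.11 against 87.1 CPM.

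Receptor genes as a list lay near the background. Of 21 outside the rules, 2 were at least 2-fold higher and 11 lower, where 41.2% of all genes were lower, and relative to the median gene 3 were higher and 4 lower, where 14.1% of all genes were lower. Higher were Fpr1, the receptor for bacterial formyl peptides, at 504 against 229 CPM (314 CPM in the narrower set), and Ltb4r1, the leukotriene B4 receptor, at 425 against 157 CPM. Clec4n, the C-type lectin dectin-2, had 16.3 against 421 CPM, and Clec4d, a related lectin, 243 against 843 CPM. The Toll-like receptor genes Tlr2 and Tlr4 had 45.7 and 42.7 CPM, against 212 and 143 CPM, and Ccr1, a chemokine receptor, had 153 against 508 CPM. Csf3r, the receptor for granulocyte colony-stimulating factor, had 192 against 799 CPM, Il1r2 460 against 721 CPM and Cxcr2 246 against 354 CPM, but the comparison cells were chosen for these 3 genes.

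Most cytokine and chemokine genes were lower. Of 13 compared, 0 were at least 2-fold higher and 12 lower, where 41.2% of all genes were lower, with a median log2 ratio of -3.21. Relative to the median gene 9 were lower, where 14.1% of all genes were. Il1b, which encodes interleukin 1 beta, had 238, 446, 90.6, 17.7 and 154 CPM in the 5 runs of granule-gene-high neutrophils, against 2783, 3917, 2457, 1868 and 1954 CPM in comparison cells. Ccl3, a chemokine for monocytes and neutrophils, had 7.18, 31.9, 0, 17.7 and 0 CPM, against 499, 1604, 479, 111 and 163 CPM. Neither overlapped between the groups, and over all cells Il1b was 13.3-fold lower (11.5 to 15.3) and Ccl3 51.5-fold lower (27.1 to 113) in the granule-gene-high neutrophils. Csf1, the macrophage growth factor, had 4.06 against 203 CPM, Il1rn, the interleukin 1 receptor antagonist, 48.8 against 450 CPM, and the chemokine-binding receptor Ccrl2 31.5 against 560 CPM. Cxcl2, a neutrophil chemoattractant, had 1220 against 3464 CPM, and its runs overlapped (0 to 1520 CPM against 1509 to 4552 CPM). Tnf was within 2-fold, at 69.1 against 82.6 CPM.

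The genes with the lowest ratios behaved unequally when the narrower comparison cells were used. Vcan, an extracellular matrix proteoglycan that monocytes express, had 1.02 CPM from 1 UMI, against 79.7 CPM in all comparison cells (78.5-fold lower, 13.9 to 3113). In the narrower set it had 0.568 CPM, also from 1 UMI. Its log2 ratio of 0.84 there, against -6.29, therefore gives no direction. Ccr2, the monocyte chemokine receptor, had 2.03 CPM from 2 UMIs, against 157 CPM (77.1-fold lower, 21.2 to 639). Its 3.41 CPM in the narrower set follows from the limit on Ccr2 that defines that set. The other 13 of the 15 lowest (Plcb1, S100a10, Pid1, Mob3b, Cd83, Cd244a, Lmna, Crip1, Ccl3, Csf1, Areg, Trio and Rgs10) stayed at least 2-fold lower. These genes were picked for low ratios against cells that include the narrower set, so that count is not a test. Of these, Plcb1 had 156 CPM in all comparison cells and 6.82 CPM in the narrower set, Crip1 422 and 24.4 CPM, S100a10 211 and 31.2 CPM, and Pid1 137 and 24.4 CPM. Relative to the median gene, Crip1 was no longer 2-fold lower than in the narrower set, at -0.79 on the log2 scale. Lmna, which encodes the nuclear lamins A and C, had 3.05 CPM in granule-gene-high neutrophils, against 166 CPM in comparison cells and 199 CPM in the narrower set. That rested on 3 UMIs in granule-gene-high neutrophils, which were 54.4-fold lower than all comparison cells (18.5 to 265).

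Many genes of inflammatory signalling and stress responses were lower as well, where 41.2% of all genes were lower (14.1% relative to the median gene). Of 16 targets of NF-kB, 0 were at least 2-fold higher and 9 lower (6 relative to the median gene), among them Ier3 at 134 against 545 CPM and Gadd45b at 18.3 against 172 CPM. Of 15 immediate early and heat shock genes, 0 were higher and 12 lower (6 relative to the median gene), with Atf3, a stress-induced factor, at 5.08 against 219 CPM and Jun at 88.4 against 522 CPM. Of 12 interferon-stimulated genes, 1 was higher and 7 lower (2 and 5 relative to the median gene). The higher one, Ifitm6, a membrane protein of the interferon-induced family that is expressed in myeloid cells, had 2284 against 314 CPM, with 79.5 CPM in the narrower set. Isg15, a ubiquitin-like interferon target, had 8.13 against 54.0 CPM.

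Of 16 genes of survival and cell death, 1 was at least 2-fold higher and 11 lower, beside 41.2% lower among all genes, and relative to the median gene 3 were higher and 6 lower. The Bcl2 relatives Bcl2a1a, Bcl2a1b and Bcl2a1d, near-identical copies whose split is uncertain, had 7.11, 27.4 and 17.3 CPM, against 252, 555 and 221 CPM. Pmaip1, which encodes the death promoter Noxa, had 6.10 against 111 CPM, and Bax 11.2 against 89.6 CPM, so that these genes for and against cell death were both lower. Mcl1, a survival factor of neutrophils, had 490 against 1131 CPM. Gadd45a, a growth arrest gene, was the higher one, at 326 against 160 CPM (187 CPM in the narrower set).

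Of the 6 genes of the NADPH oxidase, the enzyme of the respiratory burst, 1 was at least 2-fold higher, beside 6.35% of all genes. Cybb, its catalytic subunit, had 1678, 1434, 2460, 1222 and 1409 CPM in the 5 runs of granule-gene-high neutrophils, against 445, 560, 432, 486 and 304 CPM in comparison cells, with no overlap and a ratio of 3.88 (3.60 to 4.19). In the narrower set Cybb had 113 CPM. The partner subunit Cyba was within 2-fold, at 1344 against 1689 CPM, as was Ncf1 (647 against 325 CPM). G6pdx, which supplies the NADPH, had 233 against 48.3 CPM, and Mgst2, a microsomal glutathione transferase, 141 against 25.4 CPM. They were the 2 higher of 18 antioxidant genes, of which 8 were lower, a share near the 41.2% of all genes (4 higher and 4 lower relative to the median gene), with the peroxiredoxin Prdx1 at 22.4 against 289 CPM and the metallothionein Mt1 at 12.2 against 106 CPM.

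Lipid mediator genes went in both directions. Lta4h, the enzyme that makes leukotriene B4, had 241 against 31.4 CPM, while Ptgs2, the inducible cyclooxygenase, had 30.5 against 253 CPM and Ltc4s, the leukotriene C4 synthase, 5.08 against 88.2 CPM. Of 15 hypoxia and glycolysis genes, 2 were at least 2-fold higher and 4 lower, beside 6.35% higher and 41.2% lower among all genes. The glucose transporter Slc2a3 had 335 against 77.6 CPM, and Slc2a1, another glucose transporter, 27.4 against 59.6 CPM. Of 17 adhesion genes, 3 were higher and 3 lower, beside the same shares of all genes. Ceacam1, an adhesion receptor, had 103 against 27.9 CPM and S1pr4, a sphingosine 1-phosphate receptor, 54.9 against 24.7 CPM, while Icam1 had 3.05 against 56.1 CPM.

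Genes of oxidative phosphorylation and of translation were lower on the CPM scale but less so relative to the median gene. Of 19 respiratory chain genes, 0 were at least 2-fold higher and 15 lower, and relative to the median gene the counts were 0 and 0. Of 13 genes of ribosome biogenesis and translation, 0 were higher and 12 lower, and 3 were lower relative to the median gene. Among all genes compared, 41.2% were lower, and 14.1% relative to the median gene. The nucleolar protein gene Npm1 had 40.6 against 271 CPM.

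**Figure D4:**
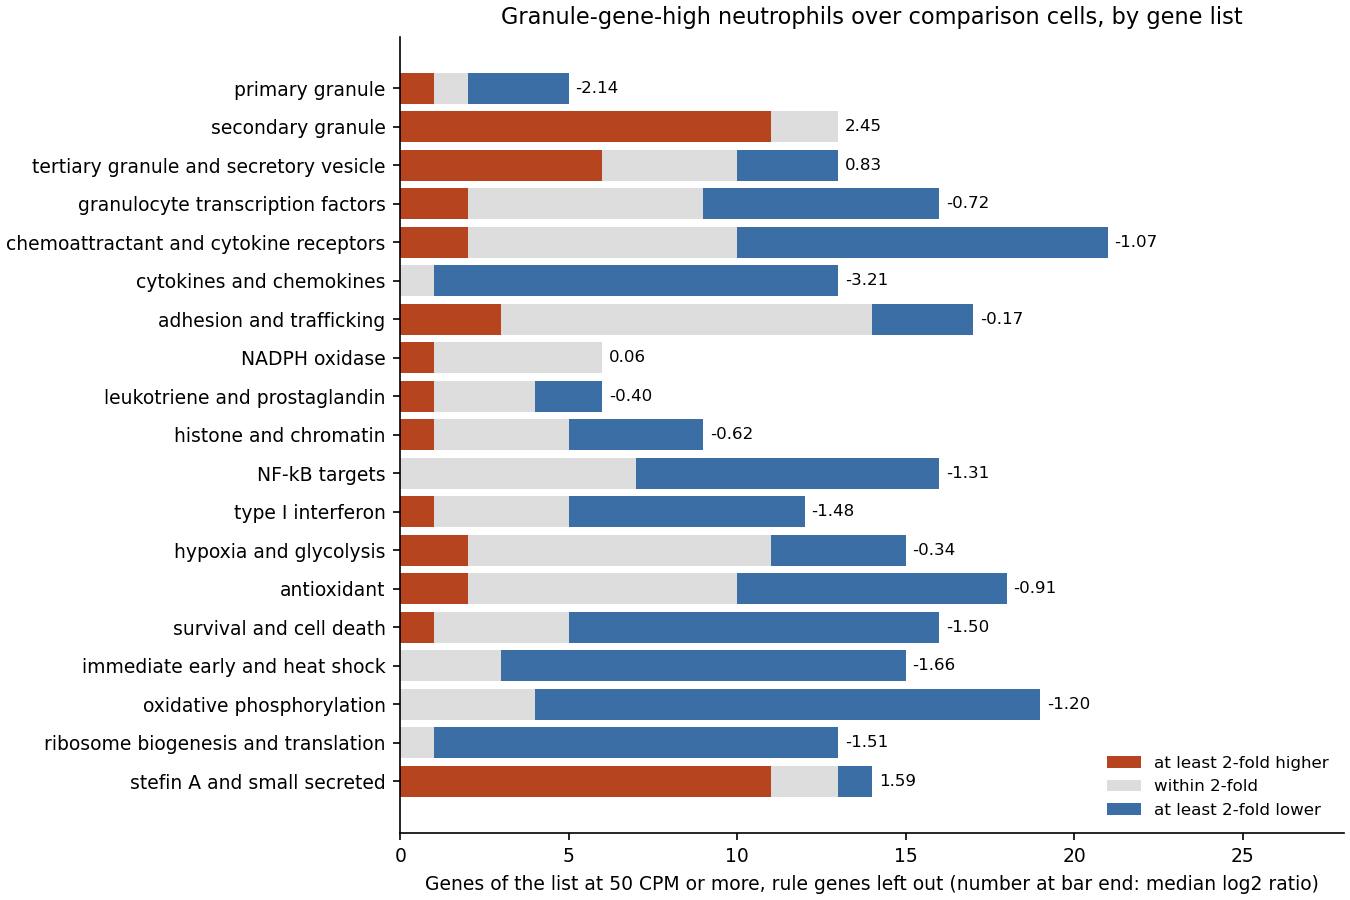
Number of genes in each list, out of those that reached 50 CPM and were not in the rules, that were at least 2-fold higher (left part of the bar), within 2-fold (middle) or at least 2-fold lower (right part) in granule-gene-high neutrophils relative to comparison cells, with the list's median log2 ratio at the end of the bar. The median of all 3289 genes was -0.80, against 2.45 for the secondary granule list and -3.21 for cytokines and chemokines.

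To compare shares of cells at 1 depth, each cell was thinned to 2000 UMIs, which left 96 granule-gene-high neutrophils and 400 comparison cells and dropped 2 and 36 shallower cells. At that depth Ly6g was found in 40.6% of granule-gene-high neutrophils and 2.25% of comparison cells (67.3% and 3.90% before thinning), and Cd177 in 78.1% and 10.8% (92.9% and 19.5% before). Il1b was found in 21.9% and 80.8% (30.6% and 87.6% before), and Ccl3 in 3.12% and 32.2% (5.10% and 42.7% before). Csf1 was found in 0 of 96 granule-gene-high neutrophils, with an upper 95% exact binomial limit of 3.77%, and in 27.2% of comparison cells. The surfactant gene Sftpc was found in 18.8% and 27.8% (51.0% and 52.3% before), and in 19.6% of all other cells at that depth. Ly6g and Cd177 were found in 0.0405% and 0.172% of all other cells, under their shares in both groups, while Il1b was found in 26.4% and Ccl3 in 13.1%, above their shares in granule-gene-high neutrophils.

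Dividing cells were rare. Of the 98 granule-gene-high neutrophils, 6 (6.12%, 2.28 to 12.9) had at least 2 UMIs of the proliferation genes Mki67 and Top2a, against 8 of the 436 comparison cells (1.83%, 0.795 to 3.58) and 3 of the 351 narrower ones (0.855%). Of 20 S phase genes 18 and of 20 G2M genes 19 stayed under 50 CPM in both groups. Hist1h2ap, a replication-dependent histone gene, had 85.3 against 21.9 CPM, but this rested on run 7, where the granule-gene-high neutrophils had 1276 CPM. Without run 7 it had 12.9 against 21.5 CPM, so its direction turned, and the dividing cells were 4 of 85 (4.71%) against 8 of 406 (1.97%).

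The granule-gene-high neutrophils varied among themselves in the share of UMIs from Ngp, Camp and Ltf. They were ordered by that share and divided into a low bin of 33 cells (median 1.22%), a middle bin of 33 (4.04%) and a high bin of 32 (5.95%). Run 1 gave 23, 17 and 14 of these cells, and the median UMIs per cell were 6381, 8058 and 6980. Of 2360 genes that reached 50 CPM in the low or the high bin, 145 (6.14%) were at least 2-fold higher in the high bin and 425 (18.0%) at least 2-fold lower, with a median log2 ratio of -0.33. The order used the granule genes of the same cells, so what follows is a description too.

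Several receptor, cytokine and secreted protein genes were most abundant in the low bin. Retnlg had 17142, 7671 and 2924 CPM from the low to the high bin, Il1b 559, 130 and 5.45 CPM (2 UMIs in the high bin), and Wfdc17 1251, 45.3 and 5.45 CPM. Cxcl2 had 2933, 583 and 461 CPM, Clec4d 552, 175 and 62.7 CPM, and Csf3r 360, 169 and 81.8 CPM. Of 8 cytokine and chemokine genes compared, 7 were at least 2-fold lower and 1 higher in the high bin than in the low bin. Of 21 receptor genes 11 were lower and 0 higher. Among all genes compared between these bins, 18.0% were lower and 6.14% higher. Within run 1 alone, with 18 cells per bin, Retnlg had 18153, 11923 and 4007 CPM and Il1b 637, 247 and 10.0 CPM, so the order was the same there.

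Other granule genes, and other genes named above such as Cpa6 and Cebpe, did not share 1 direction along the order. Chil3 had 178, 498 and 758 CPM, Serpinb1a 150, 239 and 422 CPM, Cpa6 112, 157 and 450 CPM and Cebpe 90.9, 205 and 289 CPM. Fcnb, which encodes ficolin B, a pattern recognition protein of early neutrophils, had 14.0, 27.2 and 207 CPM. Cybb had 937, 1796 and 2128 CPM. Mmp8 was lower in the high bin, at 2003, 2020 and 883 CPM, as was Mmp9, at 1384, 1334 and 739 CPM. Olfm4 kept to 1370, 1639 and 1447 CPM. Of the 13 secondary granule genes outside the rule, 2 were at least 2-fold higher and 1 lower in the high bin, beside 6.14% and 18.0% of all genes.

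Of 11 histone and chromatin genes, 10 were at least 2-fold higher in the high bin than in the low bin, where 6.14% of all genes were. Most of this rested on a few dividing cells and on run 7. Cells with at least 2 UMIs of Mki67 and Top2a were 1 of 33, 0 of 33 and 5 of 32 (15.6%, 5.28 to 32.8) from the low to the high bin, and 1 of 30, 0 of 30 and 3 of 25 without run 7. Without run 7, 2 of the 5 list genes that reached 50 CPM were at least 2-fold higher, beside 6.66% of all genes. Without the dividing cells it was 1 of 4, beside 6.81% of all genes. H2afz, a histone variant, had 196, 136 and 537 CPM, and 176, 136 and 425 CPM without the dividing cells. Hmgn2, a nucleosome-binding protein, had 308, 347 and 690 CPM, and 311, 347 and 490 CPM without them. The order of Chil3, Serpinb1a, Cpa6, Cebpe, Fcnb, Retnlg and Il1b over the bins was the same without run 7 and without the dividing cells.

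**Figure D5:**
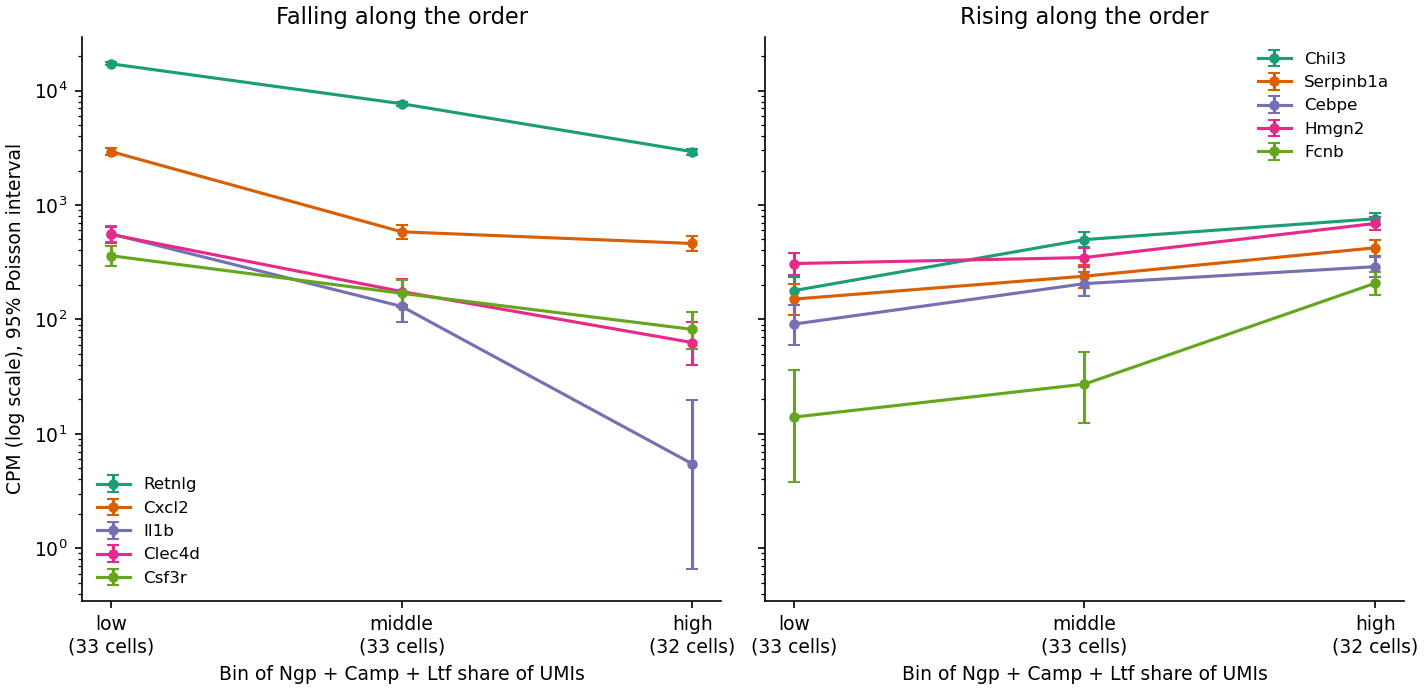
Summed levels in CPM on a log scale in the low, middle and high bins of granule-gene-high neutrophils, ordered by the share of UMIs from Ngp, Camp and Ltf, with 95% Poisson intervals that cover counting error only. Retnlg, Cxcl2, Il1b, Clec4d and Csf3r (left) are lowest in the high bin, Il1b at 5.45 CPM, and Chil3, Serpinb1a, Cebpe, Hmgn2 and Fcnb (right) are highest there, Fcnb at 207 CPM.

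The granule-gene-high neutrophils also differed in depth and in the kind of genes detected, along their share of S100a8 and S100a9. A limit of 10%, chosen after the values were seen, set 29 cells below it and 69 cells at or above it. The 29 had a median of 3553 UMIs and 1252 genes, against 9394 UMIs and 2041 genes in the 69, while their median granule share was 3.37% against 4.33%. Their median mitochondrial share was 3.39% against 0.813%. Genes at least 100 kb long gave a median of 19.5% of their UMIs (quartiles 17.9% and 26.7%), against 5.78% (4.81% and 8.99%) in the 69. Run 1 held 19 of the 29 and 35 of the 69.

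Of 3013 genes compared between the 29 and the 69 cells, 1654 (54.9%) were at least 2-fold higher in the 29, with a median gene length of 66.9 kb over the 1623 with a RefSeq length, and 101 (3.35%) were lower, with a median of 5.71 kb over 97. The median over all those compared was 36.7 kb. Igf1r, the insulin-like growth factor receptor, had 1407 against 302 CPM, Vps13b, a lipid transfer protein, 697 against 124 CPM, and Ptprc, the leukocyte antigen CD45, 1975 against 744 CPM. Short and abundant transcripts were lower, with Ifitm1 at 210 against 2064 CPM, Slpi, a secreted protease inhibitor, at 210 against 1001 CPM, and Lcn2 at 3038 against 8482 CPM. Syne1 had 3220 against 1106 CPM and Abca13 1502 against 360 CPM, while Cebpe (237 against 197 CPM) and Mmp8 (1739 against 1565 CPM) were nearly level. The part of RNA quality in these differences was not tested.

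The comparison was repeated without the 29 cells. With both groups kept at 10% or more S100a8 and S100a9, 69 granule-gene-high neutrophils and 136 comparison cells remained. All 15 of the highest and all 15 of the lowest genes named above stayed at least 2-fold different. Those genes were picked as the extremes of groups that include these cells, so that count is not a test. Of 2776 genes compared, 148 (5.33%) were at least 2-fold higher and 941 (33.9%) lower. Cd177 had 818 against 92.3 CPM, Itgb2l 243 against 14.8 CPM, Cebpe 197 against 80.6 CPM, Cybb 1425 against 172 CPM and Il1b 182 against 3037 CPM in these cells. Syne1 still had 1106 against 83.8 CPM. Not every difference held, as Retnlg, at 9708 against 5562 CPM, and Stfa1, at 44421 against 26402 CPM, were under 2-fold in these cells. Cstdc5, of the stefin A family, had 54518 against 16906 CPM.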

How the data were processed

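The deposited table holds raw UMI counts for 32285 genes in 11806 cells, made by the authors with Cell Ranger 1.3.1 on mm10, per the submitters' processing notes. No column name matched any of the 8 libraries, so cells were pooled, no p-value was computed, and the replicate tests planned for known libraries could not be run. Counts were summed over the cells of each group and given as CPM. Genes at 50 CPM in either group were compared, and a 2-fold ratio counted as a difference. Ratios have exact conditional binomial intervals and levels Poisson intervals, both 95% and for counting error only.

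The genes named are the 15 with the highest and the 15 with the lowest ratio outside the rules among those with at least 100 UMIs, plus members of the lists. The cells, lists and limits were chosen with earlier results of these data known. The narrower comparison cells and the 10% limit on S100a8 and S100a9 were added after seeing the data. Depth ranged from 1732 to 35131 UMIs per granule-gene-high neutrophil, and 8 runs of barcodes showed spread. Doublets were scored with Scrublet in scanpy 1.11.5 and kept. Sums used numpy 2.4.6, pandas 2.3.3 and scipy 1.17.1 in Python 3.11.15, and were tested on simulated data.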

Additional observations from a re-analysis of the deposited data

How the results depend on the processing

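Of 780 values of the 30 named genes over 26 settings, 775 kept their direction and a 2-fold difference. These genes were picked as the extremes of the same cells, and a change of floor leaves their ratios as they were, so the count is not a test. Vcan, with 1 UMI in each group, changed sign against the narrower comparison cells, to 0.84 on the log2 scale and 1.63 relative to the median gene. Relative to the median gene, Ccr2, which the definition of the narrower cells limits, changed sign to 0.0486, and Crip1 was under 2-fold at -0.79. Ccr2 was under 2-fold against the narrower cells, at -0.75. The 209 higher and 1354 lower genes became 500 and 465 relative to the median gene, and 472 and 425 with the narrower cells as well, where listed genes numbered 62 higher and 52 lower (40 and 115 in the main comparison, with 50 lower after centring alone). A floor of 20 CPM gave 2607 lower, a floor of 100 CPM gave 135 higher and 730 lower, no floor gave 1309 and 4980, and totals without the rule's genes gave 324 higher. With S100a8 and S100a9 at 10% or more in both groups, 26 listed genes were higher and 136 comparison cells remained. Use of 4 bins in place of 3 gave 227 higher and 730 lower genes.

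Leaving out each run of barcodes in turn gave 44 to 98 granule-gene-high neutrophils, 170 to 435 comparison cells, 202 to 221 higher and 1301 to 1446 lower genes, and 39 to 43 higher and 95 to 119 lower listed genes. Without run 1, which held most of the cells, the bins gave 490 higher and 873 lower genes. The histone list in the bins rested on run 7 and on the dividing cells, an alternative chosen after seeing the data. No paired analysis was possible because no cell could be tied to a library. One pooled sample, 98 cells and few UMIs for low genes limit the precision, and differences between animals could not be measured.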
